A study of Mus musculus with 6 samples.

Results

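The 10 genes described here encode surface molecules with which macrophages and dendritic cells instruct T cells: *Cd40*, *Cd80*, *Cd86*, *Icosl*, *Cd274*, *Pdcd1lg2*, *Cd83*, *Slamf7*, *Ly75* and *Icam1*. They were chosen by name, and all 10 were found, 1 row each, among the 14097 genes of the deposited RNA-seq table. All 10 also passed the filter of 50 normalized counts in at least 1 library, as 11067 genes did. RNA came from colonic lamina propria P3/P4 MΦs, a FACS fraction that is CD45+CD11b+CD11cintCD103-CD64+Ly6C-MHCII+, of untreated *Il10rb-/-* (KO) mice and of their *Il10rb+/-* (het) littermates on the 129SvEv background. The *Il10rb* deletion was in the whole animal, so cells other than MΦs lacked the receptor too, and the controls carried 1 intact allele. There was 1 library per genotype at each of 1, 3 and 12 weeks, from 1 mouse at 3 and 12 weeks and, per the labels, from a pool of 3 to 5 mice at 1 week. No difference at a single age therefore has a replicate check.

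A T cell that meets its antigen needs further signals from the presenting cell. CD80 and CD86 engage CD28 to co-stimulate the T cell and CTLA-4 to restrain it, ICOSL engages ICOS, and CD40 receives the signal of CD40L on activated T cells. PD-L1, encoded by *Cd274*, and PD-L2, encoded by *Pdcd1lg2*, bind PD-1 and dampen T cell responses. Intestinal MΦs normally present antigen while holding back inflammatory responses, and IL10 receptor signaling is known to restrain both cytokine production and co-stimulatory molecule expression in MΦs.

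*Cd274* (ENSMUSG00000016496, chromosome 19 from 29367455 to 29388095) and *Pdcd1lg2* (ENSMUSG00000016498, chromosome 19 from 29410919 to 29471161) are neighbors on the plus strand of GRCm38 (mm10), 22823 bases apart. RefSeq promoters of this build were at hand for 7 of the 10 genes (*Cd80*, *Icosl*, *Cd274*, *Pdcd1lg2*, *Slamf7*, *Ly75* and *Icam1*), and the 250 bases before the start site were searched on both strands. For *Cd80* and *Slamf7* all 250 bases lie inside the gene span given below, since the RefSeq start site used differs from the outer end of that span. The motifs were the kB consensus, a GAS motif (TTCNNNGAA), an AP-1 motif (TGANTCA) and an ISRE core of 2 GAAA half-sites with 2 bases between them. Of 27025 promoters, 3.75%, 7.18%, 6.87% and 3.04% held a match to each, in that order. Among the 7, the kB consensus matched in *Pdcd1lg2*, the GAS motif in *Icam1* and the AP-1 motif in *Cd80* and *Slamf7*, none of them overlapping, and the ISRE core matched in none. The kB match rests on the form of the motif, since a stricter form searched first (GGG and TTTCC with 2 bases between them, in 1.4% of promoters) matched in none of the 7. The GAS and AP-1 matches all began 42 bases before the start site. Over all promoters that position held 10 GAS and 6 AP-1 matches, where a position held a median of 8.0 of either. A match is a description of letters and not of binding. Shown here are the promoters of the 2 PD-1 ligand genes, of *Cd80*, a B7 gene higher in *Il10rb-/-* MΦs at every age, and of *Icam1*, which was lower at 12 weeks, with motif matches in capitals. They lie at chr19:29367188-29367437, chr19:29410669-29410918, chr16:38458683-38458932 and chr9:21015690-21015939, all on the plus strand.
Cd274: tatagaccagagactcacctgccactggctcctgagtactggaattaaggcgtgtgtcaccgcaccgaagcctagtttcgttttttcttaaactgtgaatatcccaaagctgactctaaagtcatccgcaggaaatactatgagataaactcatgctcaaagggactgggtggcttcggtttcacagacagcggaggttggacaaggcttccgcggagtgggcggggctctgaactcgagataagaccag
Pdcd1lg2: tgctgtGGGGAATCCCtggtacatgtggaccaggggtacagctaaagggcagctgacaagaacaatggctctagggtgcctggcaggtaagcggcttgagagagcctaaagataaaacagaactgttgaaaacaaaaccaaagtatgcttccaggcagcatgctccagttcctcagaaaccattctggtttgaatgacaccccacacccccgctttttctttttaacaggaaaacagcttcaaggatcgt
Cd80: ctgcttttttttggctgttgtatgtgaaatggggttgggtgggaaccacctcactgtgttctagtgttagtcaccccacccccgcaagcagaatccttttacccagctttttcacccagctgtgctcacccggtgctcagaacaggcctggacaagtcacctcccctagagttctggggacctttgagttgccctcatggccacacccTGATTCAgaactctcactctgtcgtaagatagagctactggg
Icam1: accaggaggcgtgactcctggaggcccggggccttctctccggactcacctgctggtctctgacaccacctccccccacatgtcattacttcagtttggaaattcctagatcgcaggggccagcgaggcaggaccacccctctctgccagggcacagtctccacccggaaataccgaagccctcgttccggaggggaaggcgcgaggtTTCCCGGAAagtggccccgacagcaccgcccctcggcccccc

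Depth on the listed genes ran from 6700337 reads in the 3-week *Il10rb+/-* library to 40754971 in the 12-week *Il10rb+/-* library. Values are normalized counts, that is reads divided by a size factor, which are not scaled by gene length, and a count of 0 is shown as 1. *Il10rb* itself had 386 to 2341 reads in the *Il10rb+/-* libraries and 8 to 43 in the *Il10rb-/-* libraries. Intervals given with a ratio are exact (Clopper-Pearson) 95% intervals from the reads, cover counting error only and compare 2 libraries, not the conditions. In such bulk samples fewer cells of a type and less RNA per cell cannot be told apart. The libraries labelled 12-week *Il10rb-/-* and *Il10rb+/-* differed widely in MΦ genes: 6 of 12 macrophage markers were over 3-fold lower in *Il10rb-/-*, and the summed level of the list was 266100 normalized counts in *Il10rb+/-* and 119300 in *Il10rb-/-*. *Csf1r* and *Fcgr1*, which encodes the gated CD64, had log2 ratios of -0.01 and 0.04 there, while *Cx3cr1*, *Adgre1* and *C1qa* had -3.16, -2.12 and -2.08.

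The length-scaled levels of the 10 genes spanned several orders of magnitude within each library. *Cd83*, which encodes a surface glycoprotein of activated antigen-presenting cells, ranked first of the 10 in all 6 libraries, with 25090 to 52980 normalized counts per kb of exon. Among 14085 genes with an annotated exon length, it ranked no lower than 34th in any library. *Pdcd1lg2* ranked 9th and *Ly75* 10th in all 6 libraries. The places between them shifted with age and genotype. *Icam1* came second except in the 12-week *Il10rb-/-* library, where *Cd274* was ahead of it at 7872 against 3680 normalized counts per kb. *Slamf7* was 8th in both libraries at 1 week and 6th and 7th at 12 weeks. *Icosl* was 5th at 1 week and 8th in the 12-week *Il10rb-/-* library. Of 54 pairs of neighbors in these orders, 1 could not be ordered within counting error, *Cd80* over *Cd40* in the 1-week *Il10rb-/-* library (ratio 1.16, interval 0.995 to 1.35).

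**Figure D1:**
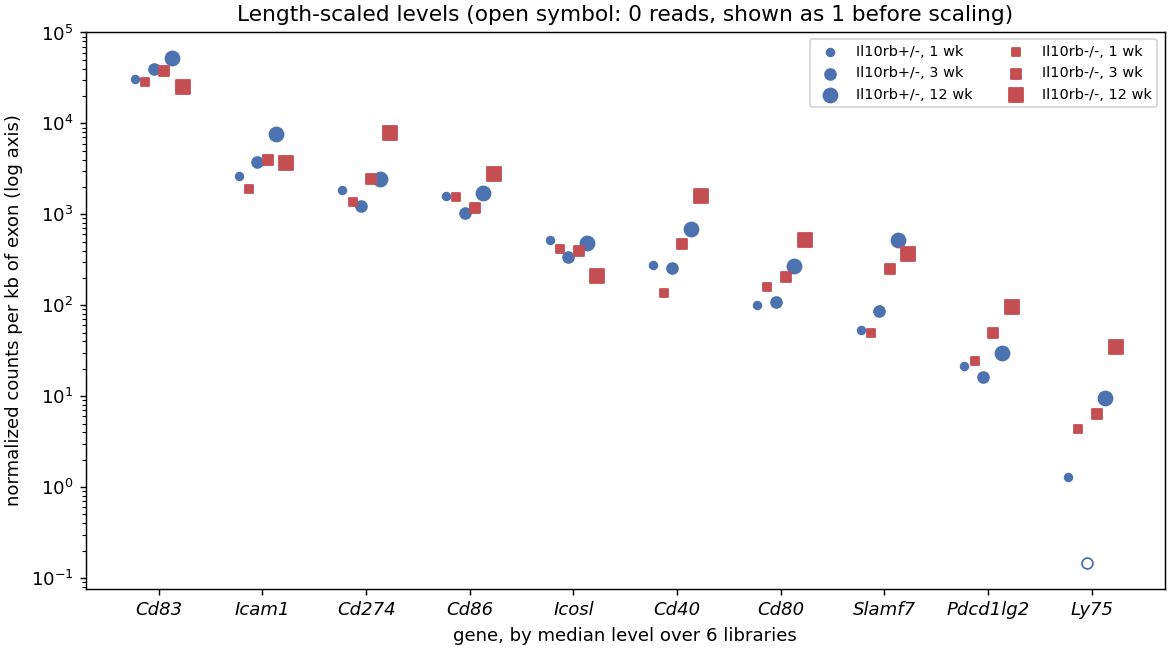
Normalized counts per kb of exon (log axis) for each of the 10 genes, in order of their median over the 6 libraries, with *Il10rb+/-* libraries as blue circles, *Il10rb-/-* libraries as red squares and symbol size growing with age. *Cd83* lies above all others and *Ly75* lowest in every library, and the open circle is *Ly75* at 0 reads.

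Both PD-1 ligand genes were higher in *Il10rb-/-* MΦs at 3 weeks and over 3-fold higher at 12 weeks. With the *Il10rb+/-* library given first, here and wherever values are paired, *Cd274* stood at 6675 against 5010 normalized counts at 1 week, 4509 against 8859 at 3 weeks and 8820 against 28512 at 12 weeks. The *Il10rb-/-* library was thus the lower of the pair at 1 week and the higher at both later ages, and the 12-week *Il10rb-/-* library exceeded the other 5. The log2 ratios (*Il10rb-/-* over *Il10rb+/-*) were -0.41 (interval -0.47 to -0.35), 0.97 (0.90 to 1.05) and 1.69 (1.67 to 1.72). *Cd274* shares 511 of its 3622 exon bases with the antisense gene AC119228.1. The strand setting of the read counting is not given in the sources used here, so reads from the shared bases cannot be told apart. *Pdcd1lg2* was much less abundant, at 41.6 against 47.9 normalized counts at 1 week, 31.6 against 96.7 at 3 weeks and 59.1 against 188.5 at 12 weeks. The *Il10rb-/-* library was the higher at each age, by a log2 ratio of 0.20 (-0.51 to 0.90), 1.61 (0.78 to 2.57) and 1.67 (1.37 to 1.99). At 1 week the interval holds 0, so that this depth could not separate the pair, and only 13 reads lie behind the 3-week *Il10rb+/-* value. Per kb, *Cd274* exceeded *Pdcd1lg2* by 49.6 to 86.8 times over the 6 libraries, and at 12 weeks by 80.8 times in *Il10rb+/-* and 81.9 times in *Il10rb-/-* MΦs, with overlapping intervals of 67.8 to 97.1 and 73.0 to 92.1.

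Among the B7 ligands of CD28 and CTLA-4, *Cd80* (ENSMUSG00000075122, chromosome 16 from 38455561 to 38496335) was higher in *Il10rb-/-* MΦs at every age, each time by less than 2-fold. It had 377 against 581 normalized counts at 1 week, 406 against 749 at 3 weeks and 996 against 1926 at 12 weeks. The log2 ratios were 0.63 (0.42 to 0.83), 0.88 (0.64 to 1.13) and 0.95 (0.87 to 1.03), which are folds of 1.54, 1.84 and 1.93, each beyond counting error. *Cd86* (ENSMUSG00000022901, chromosome 16 from 36603869 to 36666081), the more abundant of the pair, had 5828 against 5730 normalized counts at 1 week, 3774 against 4334 at 3 weeks and 6288 against 10175 at 12 weeks. Its 1-week pair could not be separated (log2 ratio -0.02, interval -0.08 to 0.03, and 0.00 with TMM scaling), and the ratio was 0.20 (0.12 to 0.28) at 3 weeks and 0.69 (0.66 to 0.73) at 12 weeks. Within a library the excess of *Cd86* over *Cd80* per kb was smaller in *Il10rb-/-* than in *Il10rb+/-* MΦs of the same age. It was 15.7 times in *Il10rb+/-* and 9.97 times in *Il10rb-/-* at 1 week, 9.39 and 5.85 times at 3 weeks, and 6.38 and 5.34 times at 12 weeks. The counting intervals of the 2 genotypes did not overlap at any of these ages.

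*Icosl* (ENSMUSG00000000732, chromosome 10 from 78069302 to 78083913) took another course than the other B7 ligands. It had 2409 against 1923 normalized counts at 1 week, 1574 against 1804 at 3 weeks and 2227 against 960 at 12 weeks. The 12-week *Il10rb-/-* library was the lowest of the 6, and its log2 ratio was -1.21 (-1.30 to -1.13), after -0.33 (-0.42 to -0.23) at 1 week and 0.20 (0.07 to 0.33) at 3 weeks.

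*Cd40* (ENSMUSG00000017652, chromosome 2 from 165055627 to 165072948), the receptor through which T cell help reaches the MΦ, had 954 against 461 normalized counts at 1 week, 881 against 1621 at 3 weeks and 2360 against 5440 at 12 weeks. The order of the genotypes thus turned between 1 and 3 weeks. The log2 ratios were -1.05 (-1.24 to -0.86), 0.88 (0.72 to 1.05) and 1.21 (1.15 to 1.26). From 1 to 12 weeks *Cd40* was 11.8-fold higher in *Il10rb-/-* and 2.47-fold higher in *Il10rb+/-* MΦs.

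*Cd83* (ENSMUSG00000015396, chromosome 13 from 43784775 to 43803132) was nearly level between the genotypes in young mice and lower in *Il10rb-/-* MΦs at 12 weeks. It had 79854 against 73609 normalized counts at 1 week, 100930 against 97925 at 3 weeks and 136280 against 64534 at 12 weeks. The log2 ratio was -0.12 (-0.13 to -0.10), -0.04 (-0.06 to -0.03) and -1.08 (-1.09 to -1.07). *Icam1* (ENSMUSG00000037405, chromosome 9 from 21015985 to 21028817), the adhesion ligand of the integrin LFA-1, was also lower at 12 weeks, with 11537 against 8344 normalized counts at 1 week, 16441 against 17340 at 3 weeks and 33584 against 16046 at 12 weeks. Its log2 ratios were -0.47 (-0.51 to -0.42), 0.08 (0.04 to 0.12) and -1.07 (-1.09 to -1.04). In both genes the 12-week *Il10rb+/-* library was the highest of the 6. *Icam1* shares 511 exon bases with the antisense gene Gm47079, with the same limit as above.

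*Slamf7* (ENSMUSG00000038179, chromosome 1 from 171632403 to 171653035), a self-ligand receptor of the SLAM family, had 245 against 229 normalized counts at 1 week, 392 against 1150 at 3 weeks and 2397 against 1687 at 12 weeks. The *Il10rb-/-* library was the higher of the pair at 3 weeks and the *Il10rb+/-* library at 12 weeks. The log2 ratios were -0.10 (-0.40 to 0.20), 1.55 (1.32 to 1.80) and -0.51 (-0.57 to -0.44). *Slamf7* shares 423 exon bases with the antisense gene Gm37787. *Ly75* (ENSMUSG00000026980, chromosome 2 from 60292103 to 60383303), which encodes the endocytic receptor DEC-205 of dendritic cells, was the least abundant of the 10. It had 9 against 20 reads at 1 week, 0 against 50 at 3 weeks and 140 against 373 at 12 weeks. The log2 ratio was 1.75 (0.55 to 3.07) at 1 week and 1.84 (1.56 to 2.13) at 12 weeks, and at 3 weeks *Ly75* was at least 6.02-fold higher in *Il10rb-/-* MΦs, computed against 3 reads in the *Il10rb+/-* library and without counting error. The counting interval of the 3-week ratio begins lower, at 2.24 on the log2 scale. *Ly75* shares 249 exon bases with the antisense gene Gm13571.

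**Figure D2:**
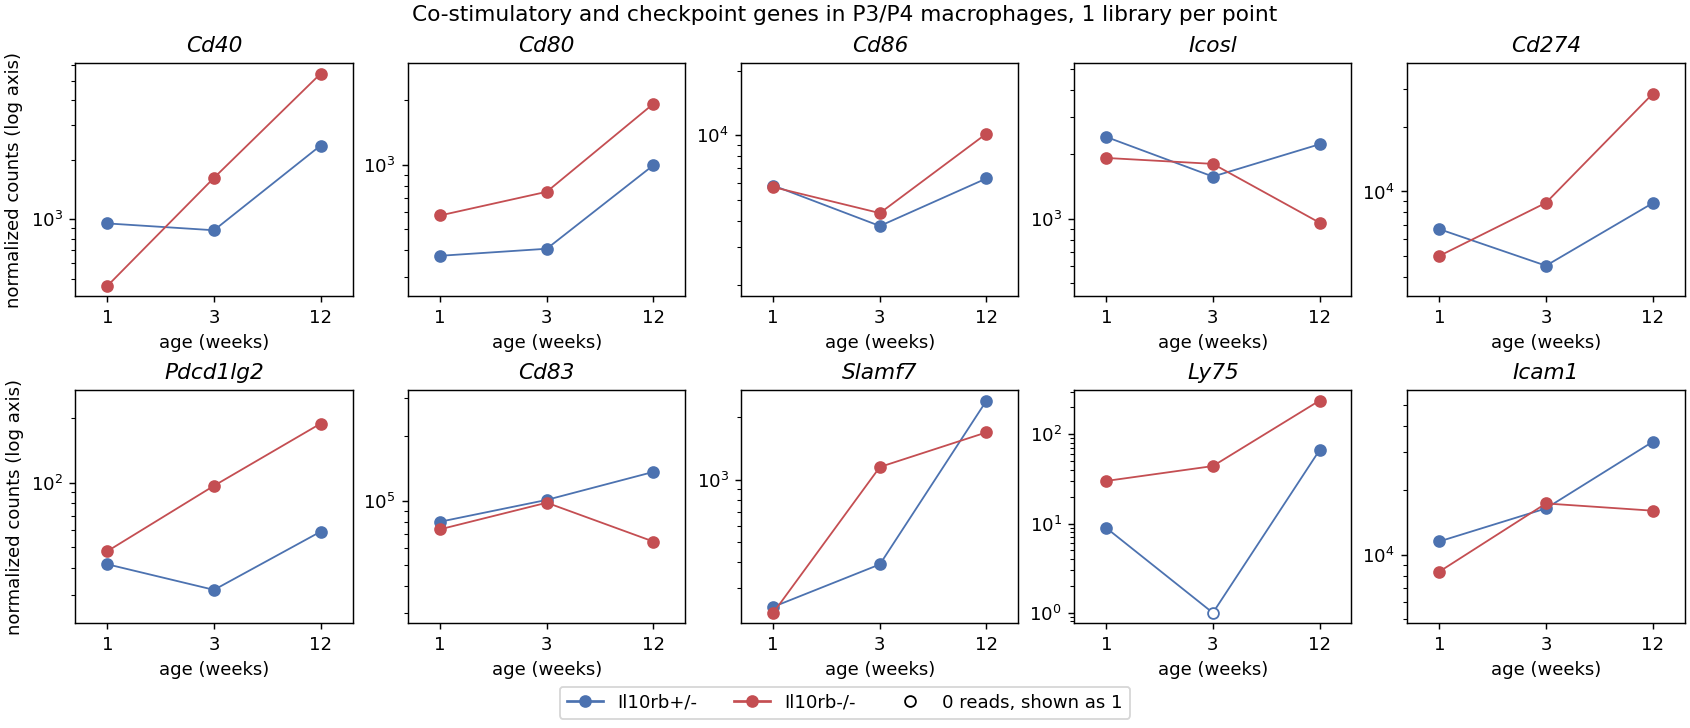
Normalized counts (log axis, a range of its own for each gene) of the 10 genes at 1, 3 and 12 weeks, which are evenly spaced on the axis, with *Il10rb+/-* libraries in blue and *Il10rb-/-* in red, 1 library per point. *Cd80*, *Pdcd1lg2* and *Ly75* have the red point above the blue at every age, *Cd40*, *Cd86* and *Cd274* from 3 weeks on, and *Cd83* at none.

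Set side by side, 3 of the 10 genes were lower or higher by over 3-fold at 12 weeks, all of them higher in *Il10rb-/-* MΦs: *Cd274*, *Pdcd1lg2* and *Ly75*. Over all genes past the filter, 4.03% were over 3-fold higher and 9.99% lower at that age. At 3 weeks *Pdcd1lg2* and *Ly75* were over 3-fold higher (background 1.34%) and none was lower (0.642%). At 1 week *Ly75* alone was over 3-fold higher (2.75%) and none was lower (0.75%). The median log2 ratio of the 10 was -0.11, 0.88 and 0.82 at 1, 3 and 12 weeks, where that of all genes past the filter was -0.04, 0.02 and 0.04. The calls near 3-fold rest on the scaling: by total reads, which moves the 12-week median of all genes to -0.19, *Cd274* and *Pdcd1lg2* had 12-week log2 ratios of 1.47 and 1.45, under the log2 threshold of 1.58, and *Pdcd1lg2* 1.57 at 3 weeks.

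By direction alone, *Cd80*, *Pdcd1lg2* and *Ly75* were higher in *Il10rb-/-* MΦs at all 3 ages, as were 17.4% of all genes past the filter. *Cd40*, *Cd86* and *Cd274* were lower at 1 week and higher at 3 and 12 weeks (16.1% of all genes), although *Cd86* turned to a ratio above 0 at 1 week with TMM scaling. *Icosl*, *Slamf7* and *Icam1* were higher at 3 weeks and lower at 1 and 12 weeks (10.7%), and *Cd83* was lower at all 3 ages (17.2%). Beyond counting error, 9 of the 10 were higher at 3 weeks (20.6% of all genes past the filter), and at 12 weeks 6 were higher (43.3%) and 4 lower (38.3%). In 5 of the 10 (*Cd40*, *Icosl*, *Cd274*, *Slamf7* and *Icam1*) the direction turned between ages beyond counting error, as in 25.8% of all genes. These shares depend on abundance, since intervals narrow with the number of reads.

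**Figure D3:**
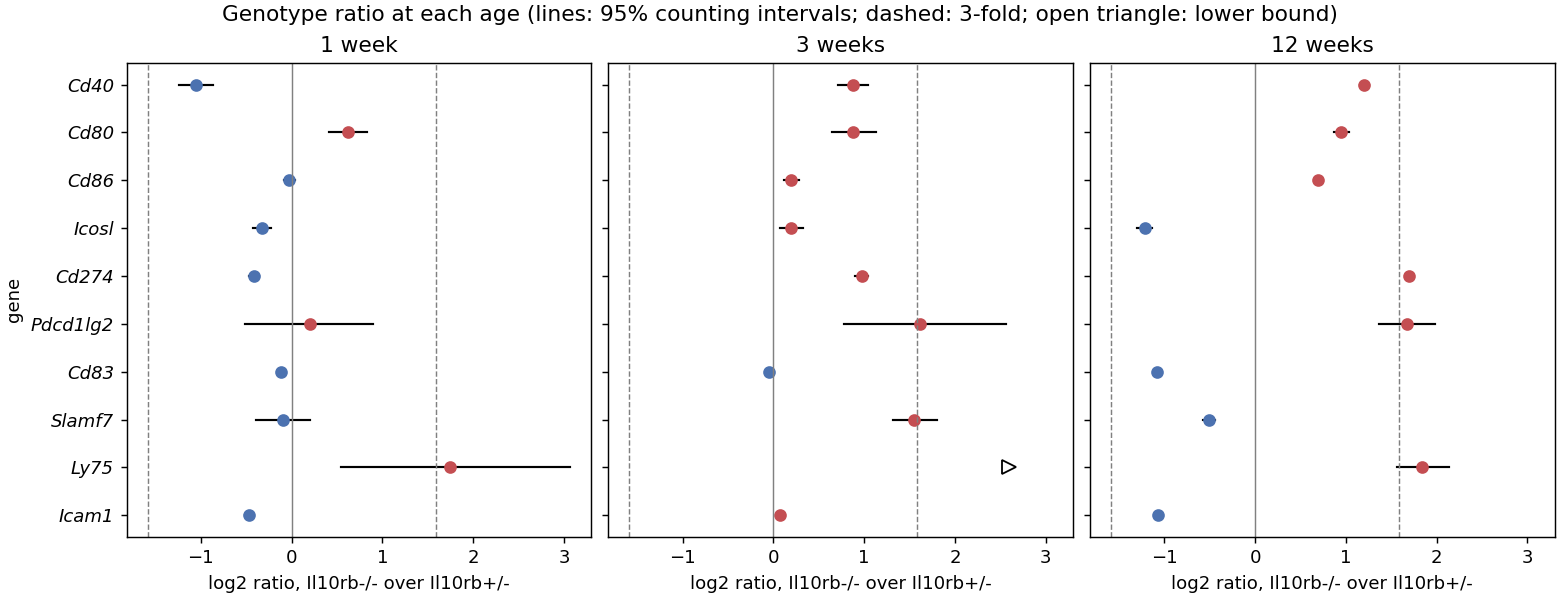
Log2 ratio of *Il10rb-/-* over *Il10rb+/-* normalized counts for the 10 genes at 1, 3 and 12 weeks, with 95% counting intervals as lines (hidden behind the point where narrow), dashed lines at 3-fold and an open triangle for the lower bound of *Ly75*. At 12 weeks *Cd274*, *Pdcd1lg2* and *Ly75* lie beyond the upper dashed line and *Icosl*, *Cd83*, *Slamf7* and *Icam1* below 0.

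The ages serve as replicates only for a genotype difference shared by all 3, which was tested with limma with age as a term. No gene was called higher or lower (0% of 11067 genes in either direction at an adjusted p of 0.05), 853 had an unadjusted p under 0.05, and limma-voom on reads called 17 genes higher and 1 lower, none of the 10. In the limma fit the deleted *Il10rb* itself was not called (log2 difference -5.68, SE 0.34, adjusted p = 0.0616). A gene not called is therefore not shown to be unchanged. In this fit *Cd80* had the lowest p of the 10, with a log2 difference of 0.82 (SE 0.16) that was positive at 3 of 3 ages, an unadjusted p of 0.00286 and an adjusted p of 0.561 (0.163 to 0.986 over the alternatives). *Ly75* had 2.65 (SE 0.77, adjusted p = 0.627, and 0.126 to 0.986 over the alternatives) and *Pdcd1lg2* 1.15 (SE 0.43, adjusted p = 0.627), also positive at 3 of 3 ages. Without the 3-week pair, in which *Il10rb+/-* had 0 reads, the *Ly75* difference was 1.73. For *Cd274* the estimate was 0.75 (SE 0.40, adjusted p = 0.627), and it was 0.28 without the 12-week pair.

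With age as the question and the 2 genotypes as replicates, 2 of the 10 genes were called, both higher at 12 than at 1 week. *Slamf7* was higher by 3.08 on the log2 scale (SE 0.50, adjusted p = 0.0312) and *Cd80* by 1.56 (SE 0.20, adjusted p = 0.0213), each in both genotypes. By background, limma called 5.01% of all genes higher and 2.23% lower at 12 weeks, or 555 and 247 genes, and with scaling by total reads 454 and 2022, with both genes still called. *Cd40* had a log2 difference of 2.43 (SE 0.55) with an adjusted p of 0.0584, and *Icam1* one of 1.24 (SE 0.32) with an adjusted p of 0.0746. None of the 10 was called between 1 and 3 weeks (0.0181% of all genes) or between 3 and 12 weeks (0.0271%). The limma-voom fit called none either. An unadjusted limma p under 0.05 was found between 1 and 3 weeks for 1 of the 10 and for 957 of all 11067 genes. Between 3 and 12 weeks it was found for 6 of the 10 and for 2261 of all genes. The 1-week libraries were pools and the others single mice, so age and pooling cannot be told apart.

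Genes that work with the 10 differed in varied ways. In the list of interferon-gamma signalling, all 9 genes had higher values in *Il10rb-/-* MΦs at 12 weeks. Their median log2 ratio was 0.72, where that of all genes past the filter was 0.04. At 1 week 7 of the 9 were lower (median -0.19), and at 3 weeks 7 were higher (median 0.22). The pathway is a known inducer of *Cd274* and *Cd40*, and its part in their values was not tested. Of 14 genes of CD40 signalling none was over 3-fold different at any age, and the 12-week median was 0.55. Among these *Traf1*, an adaptor of TNF receptors singled out after its values were seen, was higher at each age, with log2 ratios of 1.58, 1.14 and 1.39.

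Other ligands differed in both directions. Of 14 further inhibitory ligands and receptors past the filter, 1 was over 3-fold higher at 1 week (*Pvrl3*, with 10.9 and 121 normalized counts) and none over 3-fold in either direction at 3 or 12 weeks, where the medians were 0.21 and 0.35. Under that threshold, *Pvr*, a ligand of TIGIT, had log2 ratios of 0.72, 0.58 and 1.46 at 1, 3 and 12 weeks, and *Tnfrsf14*, which engages BTLA, had -0.20, 0.60 and 1.37. The B7 relatives *Cd276* and *Btnl2* were both over 3-fold lower at 12 weeks, with 244 and 21.01 normalized counts for *Cd276* and 130 and 9.55 for *Btnl2*. Of 6 TNF family co-stimulatory ligands 1 was over 3-fold lower at 12 weeks, *Tnfsf18*, with 28.4 and 2.55 normalized counts, and *Tnfsf4*, at 0 reads in the younger libraries, had 35.9 and 101.9. Of 9 genes of the SLAM family and its adaptors 2 were over 3-fold lower at 12 weeks, *Sh2d1b1* and *Slamf9*, with log2 ratios of -2.54 and -1.72. None of 9 adhesion partners and none of 6 genes of surface turnover was over 3-fold different at any age, with 12-week medians of -0.14 and 0.21. Among adhesion partners, *Itgal*, which encodes the LFA-1 subunit that binds ICAM-1, had a 12-week log2 ratio of 1.40 while *Icam1* had -1.07.

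The T cell receptors for these ligands were read in the same sorted fraction. Of 4 past the filter, 3 were over 3-fold higher in *Il10rb-/-* at 12 weeks (*Ctla4*, *Icos* and *Cd40lg*), 1 at 3 weeks (*Ctla4*), and 2 were over 3-fold lower at 1 week (*Ctla4* and *Icos*). *Ctla4* had 19 against 0 reads at 1 week, then 99.8 against 344 normalized counts at 3 weeks and 348 against 1137 at 12 weeks. *Cd28* was lower at each age, with log2 ratios of -0.74, -0.94 and -0.93. Of 6 T cell markers past the filter, 2 were over 3-fold higher and 1 lower at 12 weeks, and the defining *Cd3e* had 39.7 and 93.0 normalized counts there. The summed level of the list, most of it *Cd4* except in the 12-week *Il10rb-/-* library, ran from 2041 to 3312 in *Il10rb+/-* and from 1186 to 2497 in *Il10rb-/-* libraries. At 12 weeks the lower sum in *Il10rb-/-* (2041 and 1186) came from *Cd4* alone.

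Several of the 10 genes are also known as products of mature dendritic cells, of which the gate should hold few. Of 14 dendritic cell markers past the filter, 1 was over 3-fold higher at 1 week, 4 at 3 weeks and 3 at 12 weeks, and 2 were over 3-fold lower at 12 weeks. The summed level of the list was 10140 against 9911 normalized counts at 1 week, 5687 against 11190 at 3 weeks and 23320 against 58860 at 12 weeks. Beyond counting error, 9 of the 10 genes were higher in *Il10rb-/-* at 3 weeks, as were 20.6% of all genes past the filter, and 1 was lower. At 12 weeks 6 were higher (43.3% of all genes) and 4 lower (38.3%), the latter being *Icosl*, *Cd83*, *Slamf7* and *Icam1*. *Ccr7*, the chemokine receptor of migrating dendritic cells and the most abundant of the list at 12 weeks, had 2003 against 1976 normalized counts at 1 week, 1029 against 3160 at 3 weeks and 10331 against 38707 at 12 weeks. *Kit* was over 3-fold higher at 3 and 12 weeks too, and the defining *Flt3* and *Zbtb46* had log2 ratios of 0.78 and 1.16 at 12 weeks. The list was mixed at 12 weeks, with 9 of the 14 higher and 5 lower in *Il10rb-/-*. The 2 over 3-fold lower were *Cd207* and *Irf4*, with log2 ratios of -5.29 and -1.60. At 3 weeks the defining *Flt3* and *Zbtb46* were lower in *Il10rb-/-*, against the direction of the list's sum. They had 63.3 against 44.0 normalized counts for *Flt3* and 102 against 67.7 for *Zbtb46*. Their part in the values of the 10 genes was not tested.

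Markers of other cells also moved with genotype at 12 weeks. Of 7 monocyte markers 5 were over 3-fold higher and 1 lower in *Il10rb-/-*, and *Ly6c2*, whose product the gate excludes, had 143 and 2611 normalized counts at 12 weeks after 9.73 and 285 at 3 weeks. *Plac8* was over 3-fold higher at both ages, and *Ccr2* had a log2 ratio of -0.09 at 3 weeks and 0.21 at 12 weeks. The monocyte list was split at 3 weeks, when 3 of its 7 genes had the larger value in *Il10rb-/-* and 4 the smaller. Its median log2 ratio was then -0.09, and *Chil3* had the lowest, at -1.88. The granulocyte markers *S100a8* and *S100a9* had 12.8 and 1673 and 33.6 and 2906 normalized counts at 12 weeks and at most 5.28 in any younger library. Of the granulocyte and mast cell list, 3 of 5 genes past the filter were over 3-fold higher and 2 lower at 12 weeks. All 10 B and plasma cell markers were over 3-fold lower at 12 weeks, with *Ms4a1* at 921 and 75.1 normalized counts. Of 9 epithelial markers 4 were over 3-fold higher at 12 weeks and 6 at 1 week, where *Krt19* had 0 reads in *Il10rb+/-* and 222 normalized counts in *Il10rb-/-*. At 3 weeks 8 of these 9 were lower in *Il10rb-/-* and 1 higher, with a median log2 ratio of -0.65. B cells express *Icosl*, *Cd40*, *Cd83* and *Cd86* as well, and 9, 9 and 10 of the 10 B and plasma cell markers were lower in *Il10rb-/-* at 1, 3 and 12 weeks, with list medians of -0.94, -1.08 and -3.08. Their part in the values of the 10 genes was not tested.

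**Figure D4:**
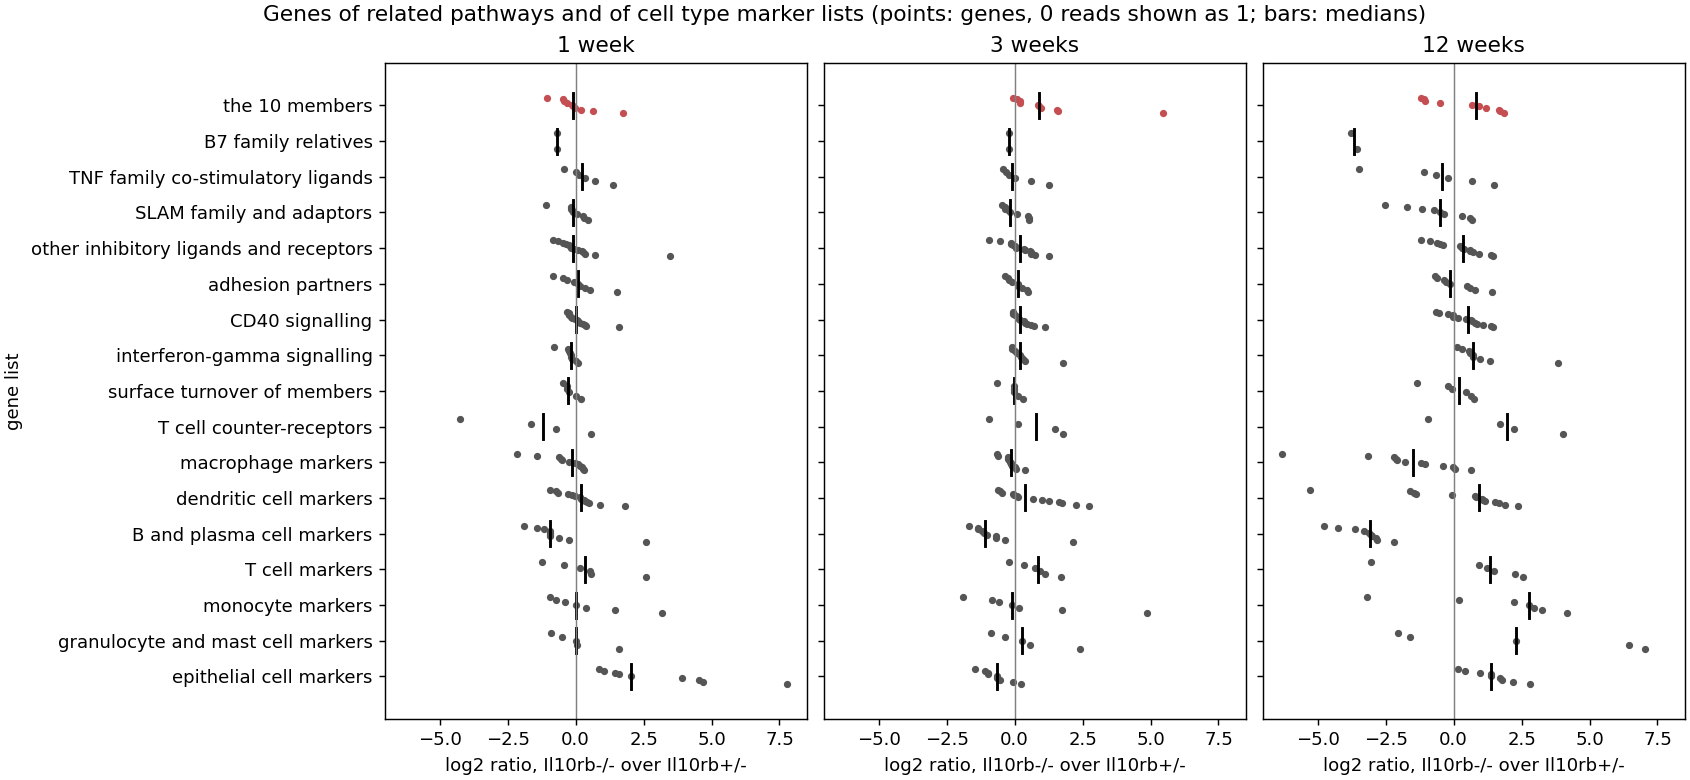
Log2 ratios of *Il10rb-/-* over *Il10rb+/-* at 1, 3 and 12 weeks for the 10 genes (red), for genes of related pathways and for markers of MΦs and other cell types (grey), 1 point per gene past the filter and a bar at each median. At 12 weeks the B and plasma cell markers (median -3.08) and macrophage markers (-1.50) lie furthest left apart from the 2 B7 relatives, and monocyte (2.77) and granulocyte (2.29) markers furthest right.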

How the data were processed

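RNA-seq of 6 libraries of sorted P3/P4 MΦs was used, grouped by the genotype and age in the labels. The authors trimmed reads with Trim Galore, mapped them to mm10 by TopHat, obtained gene counts from HTSeq and scaled these by DESeq size factors. Versions, annotation and strand setting are not given in the sources used here. The deposited values are thus a normalized signal per gene, with 0 shown as 1. Except for the value 1, each value was a multiple of its library's step (100% within 0.01 of a read), which gave reads for counting intervals. No column belonged to an unmapped sample. The 10 genes and the lists were chosen with earlier results of these data known. Of the lists, the genes named are those over 3-fold the same way at 3 and 12 weeks and the defining markers, and any other gene was chosen after its values were seen. The values of 1 listed gene are not reported here. Ratios used no pseudocount. Genotype (with age) and age (with genotype) were tested over 11067 genes in limma 3.58.1 under R 4.3.3, after a log2 transform with a pseudocount of 1, with Benjamini-Hochberg adjustment over all of them and 0.05 as threshold, so fold changes understate those of low genes. Python 3.11.15 did the rest. Exon lengths and coordinates are from GENCODE for GRCm38, which is mm10. Promoters are from RefSeq, the first listed per symbol. The model, intervals and TMM scaling were tested on simulated data. There each changed gene had the same genotype effect at every age, which was not so in the real libraries. That test therefore checks the code and not the power of the model here.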

Additional observations from a re-analysis of the deposited data

Results flagged for a closer look

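In 5 of the 10 genes the *Il10rb-/-* library was above the *Il10rb+/-* library at 1 age and below it at another, both times beyond counting error, as in 25.8% of all genes past the filter. With 1 library per genotype and age the difference between ages was not tested. The log2 ratio of *Cd40* at 12 weeks exceeded that at 1 week by 2.25, and that of *Cd274* by 2.11. The log2 ratio at 3 weeks exceeded that at 12 weeks by 2.06 for *Slamf7*, by 1.41 for *Icosl* and by 1.14 for *Icam1*.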

How the results depend on the processing

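Of 65 recomputed counts and medians, 58 stayed within the limits set for them. With 10 added to both values, 0 genes were over 3-fold higher at 1 week and 1 at 3 weeks, where *Ly75* remained. With scaling by total reads the number over 3-fold higher was 1 at 3 weeks and 1 at 12 weeks, and the 12-week median log2 ratio was 0.60. With a 2-fold threshold, 1 gene was higher at 1 week, 3 at 3 weeks and 4 at 12 weeks. In the other direction, 1 gene was lower at 1 week (*Cd40*) and 3 at 12 weeks (*Icosl*, *Cd83* and *Icam1*). The share of all genes past 2-fold was not computed, so these counts have no background beside them. With 1 age left out at a time, the genotype difference across ages of *Cd40* ran from -0.0838 (without the 12-week pair) to 1.04, and that of *Slamf7* from -0.30 (without the 3-week pair) to 0.73. The other 8 genes kept their sign. No setting called any of the 10 across ages, and leaving out 1 age at a time gave 0 called in each case. Over all genes the calls across ages, higher and lower, were 0 and 0 as reported, 19 and 1 without the 1-week pair, 2 and 1 without the 3-week pair, 51 and 10 without the 12-week pair, and 17 and 1 with limma-voom, which was chosen after seeing the data. Between ages 2 genes were called in every setting. The causes were not tested. The 2 planned count models were not run, because zeros are shown as 1. No paired analysis was possible because the labels give no replicate numbers, beyond the pairing by age that the age term makes, and without that term 0 of the 10 were called. Depth limits *Ly75* and *Pdcd1lg2* most, with 0 and 13 reads in the 3-week *Il10rb+/-* library.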
